A study of Danio rerio with 26 samples.

Results

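The set described here holds 38 of the 57918 Ensembl transcripts quantified in zebrafish (Danio rerio) brain. All were higher in the brains of withdrawal females and control males than in those of withdrawal males and control females. A transcript was taken where the lowest of its values in the 4 withdrawal female and control male brains was 5 TPM or more and at least 2 times the highest of its values in the 6 withdrawal male and control female brains. TPM is the abundance the authors gave each transcript, scaled to a fixed total per library. The first 4 libraries are called the high brains below and the other 6 the low brains. Because their values chose the set, levels in these 10 brains are a description without a test. Tests compared only groups among the 4 alcohol-exposed brains or among the 12 livers, whose levels the choice did not use. The spread in the brain test was estimated over all 14 brains, the 10 that chose the set among them.

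All fish were wild type, of the short-finned AB strain, and were kept as single-sex groups. Alcohol-exposed males and females lived for 9 weeks in water with 0.5% ethanol, renewed with a daily change of tank. Withdrawal males and females are labelled only as such, and the length of exposure and of withdrawal is not given in the sources used here. Control males and females changed tanks daily without ethanol. Control and exposed groups, of 30 fish to a tank, were also mated from the fifth week on. Age is not given in the sources used here. Brains gave 2 libraries each of alcohol-exposed males, alcohol-exposed females, withdrawal females and control males, and 3 each of withdrawal males and control females. Livers gave 2 libraries in each of the 6 groups. Tissue was pooled within groups. The sources used here do not say whether the replicates of a group are different fish, so a p-value reflects the variation among libraries only, part or all of which may be technical. In bulk tissue, fewer cells of a type and less RNA per cell cannot be told apart.

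Ethanol crosses into the brain and acts on several ion channels and transmitter receptors, and the liver clears most of it through alcohol and aldehyde dehydrogenases. The livers of egg-laying females also make yolk precursor proteins under oestrogen, so liver RNA differs between the sexes in fish. One gene can give several transcripts that share exons, and a program that assigns reads to transcripts must divide the reads that fit more than one. The tables list Ensembl transcript identifiers, and a table that pairs these with genes was not used here. The 38 transcripts therefore carry no gene name, position, function or sequence here, and the tissues were not checked against marker genes.

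Depth is unknown, since TPM adds up to one fixed total in any library. To compare libraries in the tests, TPM was also rescaled so that the typical transcript was equal between libraries. The divisors of this rescaling were 2.05 to 2.18 in alcohol-exposed brains, 0.60 to 0.69 in the high brains and 0.82 to 0.95 in the low brains. In the liver they were 0.73 and 0.87 in control males and 0.80 to 1.27 elsewhere. The divisors move with the brain pattern that chose the set, and their part in it was not tested. The rule applied to rescaled TPM found 149 transcripts, which included all 38. Every divisor of a high brain was below every divisor of a low brain, so rescaling could only add transcripts. That all 38 were kept was thus fixed in advance.

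The 38 transcripts together held a larger share of all TPM in the high brains than in any other brain. Their summed share was 1.25% and 1.07% in withdrawal females and 1.18% and 1.27% in control males. It was 0.365%, 0.312% and 0.360% in withdrawal males and 0.203%, 0.343% and 0.272% in control females. Single levels were widely spread, with a mean over the high brains of 7.43 TPM for the scarcest and 2192 TPM for the most abundant, and a median of 35.8 TPM. Of the 38, 12 averaged 100 TPM or more there and 26 less.

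**Figure D1:**
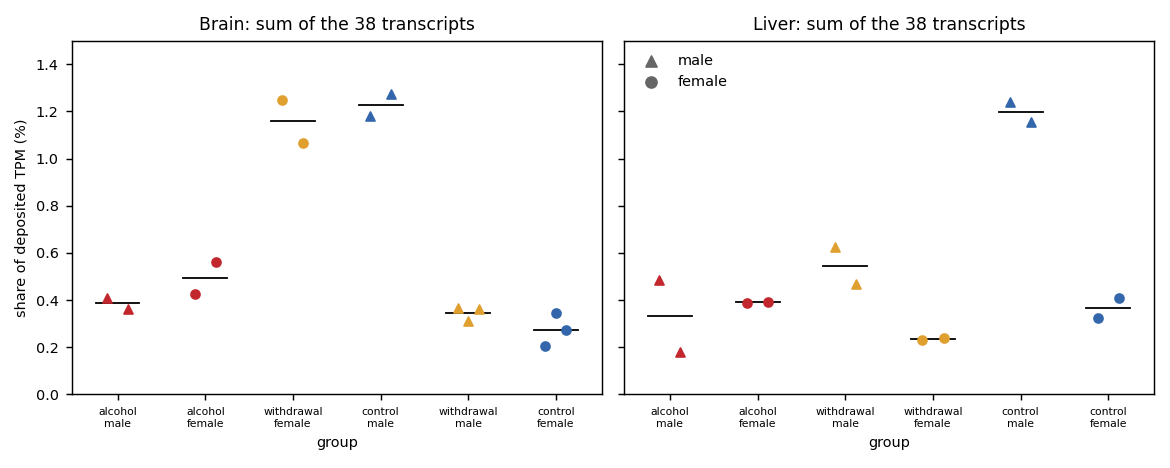
Share of deposited TPM (vertical axis, %) held by the 38 transcripts in each brain library (left) and liver library (right). Triangles are male and circles female libraries, and bars are group means. In the brain the withdrawal females and control males stand at 1.07% or above, and in the liver the control males stand at 1.16% and 1.24%.

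The 38 identifiers stood for 33 separate profiles. A group of 3 transcripts had the same value in each of the 26 libraries, and so did a group of 4. Members of such a group cannot be told apart in these tables, and their single levels are uncertain. The group of 3, among them ENSDART00000163392.1, was the more abundant. Each stood at 1687 and 1141 TPM in withdrawal females and at 1533 and 1550.2 TPM in control males. In withdrawal males each stood at 432, 337 and 422 TPM, and in control females at 102, 296 and 350.2 TPM. In control female brains the lowest and the highest library of this trio lay more than 3-fold apart.

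The most abundant transcript, ENSDART00000165249.1, was at 2101 and 2311 TPM in withdrawal females and at 2026 and 2332 TPM in control males. It was at 926, 917 and 959 TPM in withdrawal males and at 773, 966 and 569 TPM in control females. It was thus plentiful in every brain and close to the 2-fold limit of the rule. Most of the set was of this graded kind. The ratio of the lowest high brain to the highest low brain had a median of 2.48 and was under 3 for 25 transcripts, and 27 transcripts were above 0 in every low brain.

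A smaller group was often missing from the low brains. Of the 38, 9 were listed at 0 in at least 3 of the 6 low brains. ENSDART00000149634.1 was at 203 and 17.7 TPM in withdrawal females and at 225 and 322 TPM in control males, and no higher than 0.70 TPM in any low brain. ENSDART00000062738.6 was the only one listed at 0 in all 6 low brains, with 129 and 5.95 TPM in withdrawal females and 272 and 502 TPM in control males. Both transcripts were far lower in withdrawal female replicate 2 than in replicate 1. An exact 0 in such a table can be a failed division of reads between similar transcripts.

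**Figure D2:**
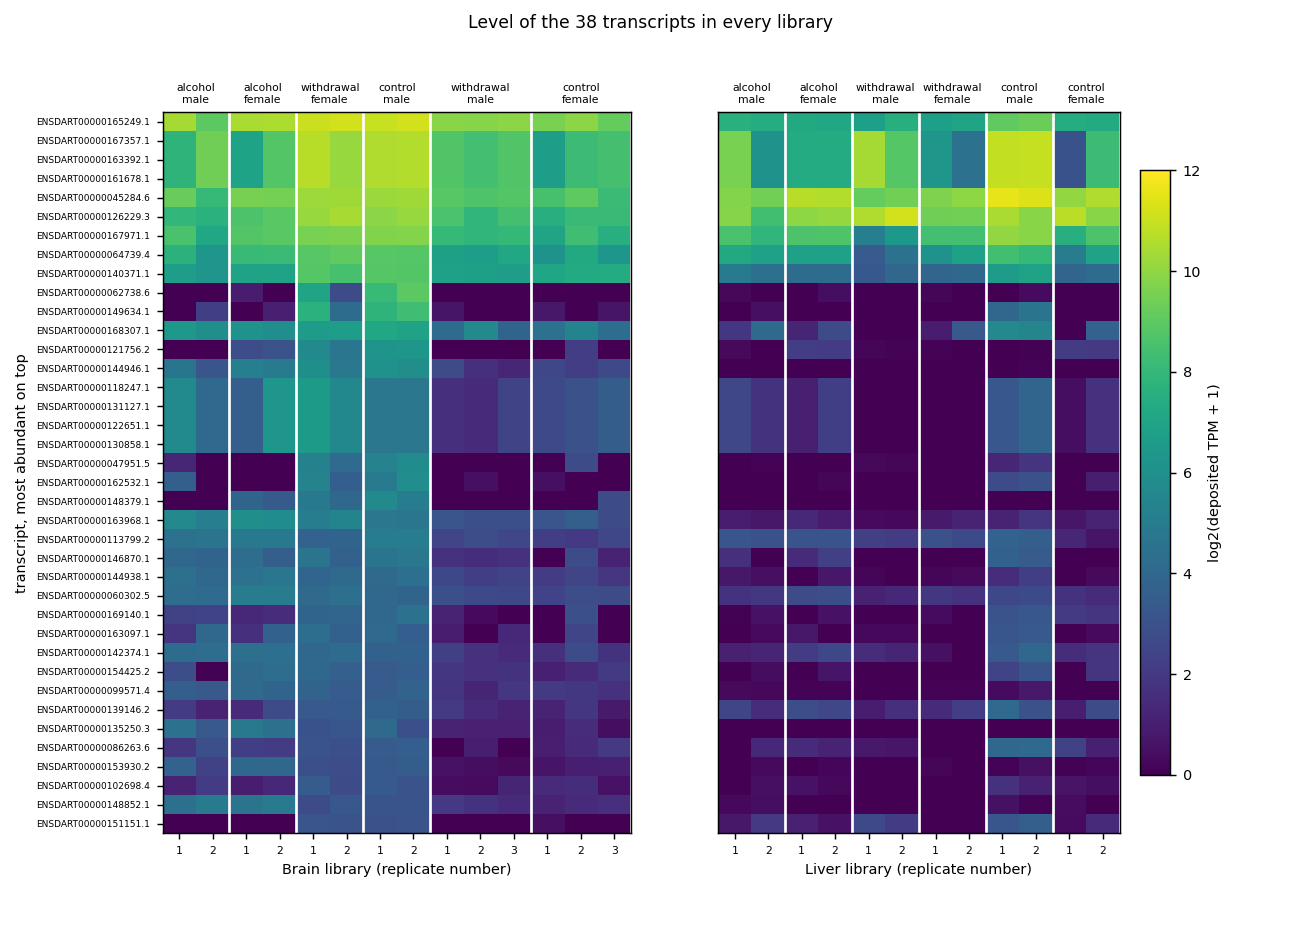
Level of the 38 transcripts (rows, most abundant on top) in every brain and liver library (columns, grouped by sex and exposure), as log2(deposited TPM + 1). The withdrawal female and control male brains are bright by the choice of the set, alcohol-exposed brains lie between in most rows, and control male livers are brighter than the other livers in most rows.

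The number of transcripts that met the rule depended most on 2 libraries. Leaving out a library can only keep or raise it, since the rule sets a lowest against a highest value. Without withdrawal female replicate 2 the rule took 148 transcripts and without control female replicate 2 it took 70. With any other library left out it took 39 to 51. The transcript nearest inside the 2-fold limit had 5.98 TPM in its lowest high brain and 2.99 TPM in its highest low brain. The nearest outside had 18.3 and 9.18 TPM. Of those past 2-fold, the lowest high value was 5.84 TPM for the nearest inside the 5 TPM limit and 4.97 TPM for the nearest outside. The opposite rule, with the low and high brains exchanged, took 448 transcripts on deposited TPM and 258 on rescaled TPM.

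Under alcohol the summed share of the set was nearer to the low brains, while its median transcript was nearer to the high brains, on the deposited scale. The summed share was 0.410% and 0.362% in alcohol-exposed males and 0.426% and 0.561% in alcohol-exposed females, all under the 1.07% of the lowest high brain. Of that sum 88.4% to 92.3% came from the 12 transcripts of 100 TPM or more. The median over the 38 transcripts of the group mean was 17.9 TPM in exposed males and 25.5 TPM in exposed females. It was 32.3 TPM in withdrawal females and 26.0 TPM in control males, and 2.71 TPM in withdrawal males and 3.48 TPM in control females. After rescaling these medians were 8.57 and 12.1 TPM in exposed males and females, 49.3 and 40.5 TPM in the 2 high groups and 2.91 and 4.12 TPM in the 2 low groups. The mean of the 4 alcohol-exposed brains lay between the low and the high mean for 26 of the 38 transcripts, above the high mean for 9 and below the low mean for 3. After rescaling, 23 lay between, 1 above and 14 below. The place of the exposed brains between the extremes thus depended on the scale, since their divisors were more than 2 times those of any other brain.

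All 12 transcripts of 100 TPM or more were lower under alcohol than in the high brains on the deposited scale. The 9 that exceeded the high mean were scarcer transcripts, of at most 31.4 TPM on average in the high brains. The most abundant transcript was at 1344 and 500.2 TPM in exposed males and 1427 and 1484 TPM in exposed females. Exposed females were thus above all low brains on the deposited scale, and exposed male replicate 2 was below all of them. After rescaling the exposed females, at 653 and 724 TPM, lay within the range of the low brains, 635 to 1172 TPM. The identical trio was at 223 and 671 TPM in exposed males and at 125 and 440.0 TPM in exposed females, against 102 to 432 TPM in the low brains. In this trio the higher library of each exposed sex was above every low brain on the deposited scale, and the lower was within their range. After rescaling the higher libraries, at 314 and 215 TPM, were within the range of the low brains, 120 to 461 TPM. The lower ones, at 109 and 57.1 TPM, were then below it.

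The 9 transcripts listed at 0 in at least 3 low brains reached at most 15.8 TPM in any exposed brain. ENSDART00000149634.1 was at 0 and 3.65 TPM in exposed males and 0 and 1.11 TPM in exposed females. ENSDART00000062738.6 was listed at 0 in 3 of the 4 exposed brains and at 0.95 TPM in the other, a female. A different pattern was that of ENSDART00000148852.1, with 20.2 and 28.9 TPM in exposed males and 23.9 and 30.4 TPM in exposed females. It was at 5.98 and 8.53 TPM in withdrawal females and 7.78 and 7.65 TPM in control males, and at most 2.99 TPM in the low brains. It was 1 of 2 transcripts whose exposed brains were all above every other brain on the deposited scale, and after rescaling none was.

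Of the 38 transcripts, 16 had all 4 exposed brains above all 6 low brains on the deposited scale, as had 54.6% of the 36682 transcripts tested in the brain. None had all exposed brains below all low brains, as had 6.74% of those tested. For 19 all 4 exposed brains were below all 4 high brains, as for 5.09% of those tested, and for 2 all were above, as for 61.9%. After rescaling, 9 had the exposed brains above all low brains, with 11.4% of all tested, and 1 below them, with 19.7%. For 32 they were below all high brains, with 21.7% of all tested, and for none above, with 18.5%. The high and low brains chose the set, so nothing is read from these counts.

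**Figure D3:**
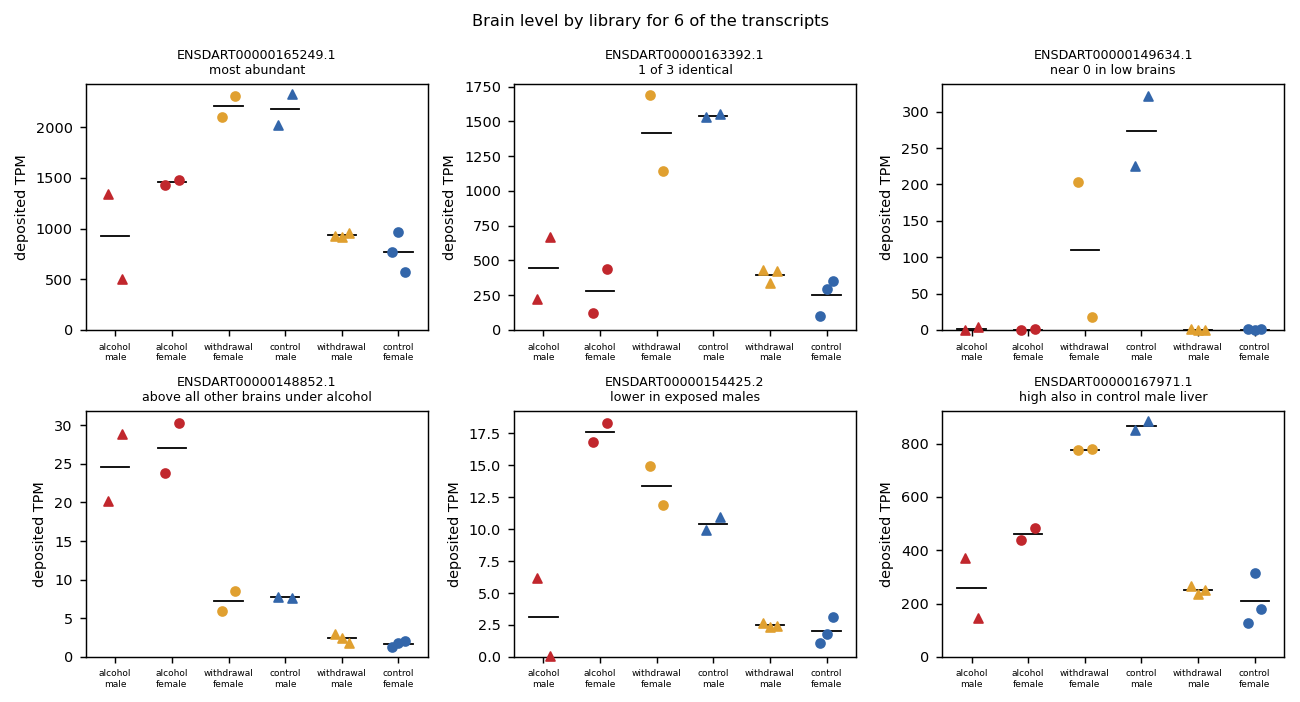
Deposited TPM (vertical axes, each from 0) of 6 of the transcripts in every brain library, by group. Triangles are male and circles female libraries, and bars are group means. The 4 alcohol-exposed brains lie at 500.2 to 1484 TPM for the most abundant transcript, at most at 3.65 TPM for ENSDART00000149634.1 and at 20.2 to 30.4 TPM for ENSDART00000148852.1.

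The exposed brains gave the one comparison in the brain whose levels the choice of the set did not use, that of exposed males with exposed females. Its standard errors and p-values took their spread from all 14 brains, those that chose the set among them. Of the 38 transcripts none was higher and 2 were lower in exposed males (limma, Benjamini-Hochberg adjusted p below 0.05 over all 36682 transcripts). Over all tested transcripts 3.04% were higher and 3.68% lower, and 6.72% differed either way, so the count in the set was near the background. The median log2 difference was −0.19 in the set and −0.01 over all tested. At an unadjusted p below 0.05, 8 of the 38 were called, where 22.0% of all tested were.

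ENSDART00000154425.2 was at 6.18 and 0.04 TPM in exposed males and 16.9 and 18.3 TPM in exposed females, without overlap. On the log2(rescaled TPM + 1) scale the difference was −2.20 (SE 0.51, limma adjusted p = 0.0289). ENSDART00000060302.5 was at 18.4 and 17.3 TPM in exposed males and 33.2 and 31.4 TPM in exposed females (log2 difference −0.77, SE 0.16, limma adjusted p = 0.0191). Neither was called without exposed male replicate 2, without exposed female replicate 1 or without exposed female replicate 2, and ENSDART00000154425.2 was then at −1.19, −2.26 and −2.07. Neither was called with only the exposed brains fitted, where 2 other transcripts of the set were. The count was 7, all lower in males, without exposed male replicate 1, and it was 5 without rescaling and 4 with quantile normalisation, again all lower in males.

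The exposed male libraries differed much from each other over these transcripts. Between replicates 1 and 2, 20 of the 38 were 2-fold or more apart in TPM + 1, as were 11.8% of all transcripts tested. Between the exposed female libraries 10 of the 38 were that far apart, as were 9.41% of all tested. Both counts include the group of 4 and the group of 3 identical transcripts, so fewer separate profiles were that far apart. In exposed females the group of 4 was at 11.3 and 77.6 TPM and the trio at 125 and 440.0 TPM. The abundant transcript ENSDART00000167971.1 stood at 371 and 145 TPM in exposed males and at 439 and 482 TPM in exposed females. The trio moved the other way between the exposed males, with its higher value in replicate 2. The median absolute log2 difference between replicates was 0.096 in exposed female and 0.225 in exposed male brains. Withdrawal male brains 1 and 3 were as close, at 0.089. Whether any such pair is 1 library deposited again was not tested, and no brain pair was averaged.

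In the liver, which the rule did not use, control males again stood out. The summed share of the 38 transcripts was 0.486% and 0.181% in alcohol-exposed males and 0.389% and 0.393% in alcohol-exposed females. It was 0.625% and 0.468% in withdrawal males and 0.229% and 0.237% in withdrawal females. In control males it was 1.24% and 1.16%, and in control females 0.324% and 0.410%. Withdrawal females, high in the brain, thus had a low share in the liver. Of the sum the identical trio held 46.0% and 50.5% in control males. It held 63.6% and 29.3% in withdrawal males and 10.5% and 2.76% in withdrawal females. Without the trio the sums were 6703 and 5732 TPM in control males. In withdrawal males they were then 2273 and 3310 TPM and in withdrawal females 2052 and 2307 TPM, with overlap. The labels do not say whether brains and livers came from the same fish.

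Of the 38 transcripts, 31 passed the filter for testing in the liver. The other 7 were at 0.74 TPM or less in every liver, and 2 of them were listed at 0 in all 12. Another 7 passed only through the control males, so a difference was given for them by the filter. The remaining 24, which made 19 separate profiles, passed in the other 10 livers alone. Of these 24, 20 were higher in control male than in control female livers (limma, Benjamini-Hochberg adjusted p below 0.05 over the 21158 transcripts tested in the liver), against 21.2% of all transcripts that passed in the other 10 livers. Both control male livers lay above all 10 other livers for 20 of the 24 on the deposited scale, against 7.40% of all such transcripts, and for 22 of the 24 after rescaling, against 14.8%. Of all 31 these counts were 27, against 9.85%, and 29, against 17.5%.

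With the 7 included, 27 of 31 were higher in control male than in control female livers and 1 was lower, where 23.7% and 27.9% of all tested transcripts were called, or 51.5% either way. The median log2 difference was 2.57 over the 31 and −0.09 over all tested. The 7 raise the first of these by the filter, and a median without them is not given. The divisors of the 2 control male livers, given above, were among the 3 lowest of the 12 livers. Without rescaling and with quantile normalisation the counts were also 27 higher and 1 lower. The count of calls in either direction was 28, and it fell with either control male replicate left out. Most of the 7 then no longer passed the filter, so fewer transcripts were tested. Transcripts that were still tested lost their call too. The trio and ENSDART00000168307.1 did so with either replicate left out, and ENSDART00000064739.4 without replicate 1. These belong to the 24, so the count over the 24 also depended on both control male livers.

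The most abundant brain transcript, ENSDART00000165249.1, was at 543 and 639 TPM in control male livers and at 174 and 161 TPM in control female livers. The groups did not overlap (log2 difference 1.98, SE 0.20, limma adjusted p = 8.18e-05). The identical trio was at 1902 and 1945 TPM in control males and at 7.19 and 301 TPM in control females (log2 difference 5.45, SE 1.73, limma adjusted p = 0.0279). The control females lay far apart in the trio. Without control female replicate 1 the difference was 2.68 and not called, and without replicate 2 it was 8.21. It was not called either without control male replicate 1 (5.36) or replicate 2 (5.58). ENSDART00000149634.1, near 0 in the low brains, was at 14.7 and 23.4 TPM in control male livers and listed at 0 in both control female livers. Across all 10 other livers it was at most 0.41 TPM, so it was one of the 7 that passed the filter only through the control males, and its difference is given as a description.

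One transcript of the set ran against the rest in control livers. ENSDART00000121756.2 was at 0 and 0.05 TPM in control males and 3.35 and 3.04 TPM in control females. It was also at 0.25 and 0.02 TPM in alcohol-exposed males and 3.57 and 3.29 TPM in alcohol-exposed females (log2 difference −1.89). In withdrawal livers it was at most 0.12 TPM in either sex. It thus passed the filter only through control and alcohol-exposed females, which fixed its direction, so its liver differences are given as a description. In the brain it was at 51.4 and 24.9 TPM in withdrawal females and 72.8 and 81.5 TPM in control males.

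For comparison, of the 448 transcripts of the opposite brain rule 316 were tested in the liver. In control livers 17 of them were higher in males and 213 lower, where 23.7% and 27.9% of all tested transcripts were called. Those that passed the filter through a single group were not set apart here. The difference between the 2 sets was not tested.

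Under alcohol and after withdrawal fewer of these transcripts were called between male and female livers. The filter made part of this, since the 31 include the 7 that passed only through the control males. These 7 were at most 0.72 TPM in any alcohol-exposed or withdrawal liver and could hardly be called there. Counts and medians without them are not given. In alcohol-exposed livers none of the 31 tested transcripts was higher in males and 4 were lower by limma, where 13.7% and 15.5% of all tested transcripts were called, or 29.2% either way. ENSDART00000121756.2 was among the 4, and its direction was fixed by the filter. At an unadjusted p below 0.05, 5 of the 31 were called either way, where 39.7% of all tested were. In withdrawal livers 3 were higher and 3 lower in males, where 21.2% and 19.8% were called, or 41.0% either way. The median difference was 0.00 under alcohol and 0.00 after withdrawal. After withdrawal 11 of the 31 were positive and 11 negative. The rest were listed at 0 in every withdrawal liver and could show no difference there. The median level of the 38 transcripts was at most 0.135 TPM in any withdrawal liver. The change of the sex difference against controls was tested for withdrawal and not for alcohol. The count of 4 under alcohol was 2 without alcohol-exposed female replicate 2, and the count of 6 after withdrawal was 2 without withdrawal male replicate 1 and 3 without withdrawal female replicate 2. Replicates of the 2 female groups agreed more closely than other liver replicates, with a median absolute log2 difference of 0.087 under alcohol and 0.10 after withdrawal, against 0.24 to 0.31 in the other groups. Whether either pair is 1 library deposited again was not tested, since no counts were used. With each pair averaged into 1 library the counts were 2 under alcohol and 1 after withdrawal.

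**Figure D4:**
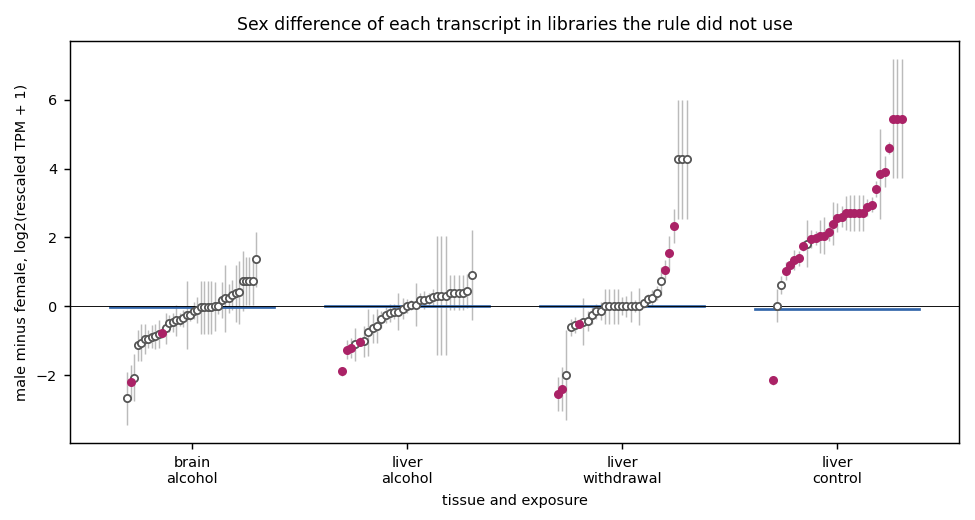
Male minus female difference of each transcript (vertical axis, log2(rescaled TPM + 1)) in alcohol-exposed brains (38 transcripts) and in alcohol-exposed, withdrawal and control livers (31 each), ordered by value within each column. Filled points were called by limma, grey lines are standard errors and horizontal bars are medians over all transcripts tested. In control livers 30 of 31 points are above 0, and ENSDART00000121756.2 is at −2.15. Points above 0 there include all transcripts that passed the filter only through the control males, which fixed their direction. The direction of ENSDART00000121756.2 was fixed too, since it passed only through control and alcohol-exposed females. Such points are not marked.

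After withdrawal the transcripts that differed between male and female livers went both ways. ENSDART00000151151.1 was at 5.36 and 3.45 TPM in withdrawal male livers and listed at 0 in both withdrawal female livers (limma adjusted p = 0.00621). ENSDART00000167971.1 was at 34.0 and 83.0 TPM in withdrawal males and at 344 and 335 TPM in withdrawal females (log2 difference −2.56, SE 0.49, limma adjusted p = 0.00391). In control livers that transcript was at 1077 and 922 TPM in males and at 188 and 402 TPM in females (log2 difference 2.03, SE 0.49, limma adjusted p = 0.00818, and 1.31 without control female replicate 1). Its sex difference thus had opposite signs in withdrawal and control livers, with males low after withdrawal and high in controls, the order of its brain values.

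The brain rule asks for a sex difference that changes sign between withdrawal and control fish. In the liver the change of the sex difference was tested, which needs no change of sign. This change was taken as the male minus female difference in controls minus that in withdrawal fish. A positive value means that males exceeded females more in controls. Where every withdrawal liver was listed at 0, the value equals the control sex difference, and a call repeats that comparison. Examples are the group of 4 identical transcripts (2.71 in both) and ENSDART00000146870.1 (3.91 in both). Of the 24 transcripts that passed the filter without the control males, 17 had a positive difference that was called, against 20.3% of all transcripts that so passed, and 1 a negative one. Of all 31, 23 had a positive and 1 a negative difference that was called, where 22.3% and 27.9% of all tested transcripts were called, or 50.2% either way. The median was 2.05 over the 31 and −0.13 over all tested. The first of these includes the transcripts that passed only through the control males, and a median without them is not given. The total over the 31 was 24 calls. It fell without control male replicate 2, where fewer transcripts passed the filter and ENSDART00000168307.1, still tested, lost its call. The brain rule has withdrawal females above withdrawal males in every transcript, and in withdrawal livers 3 transcripts were called in that direction and 3 in the other.

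ENSDART00000064739.4 was one of those whose liver values ran in the order of the brain values in both withdrawal and control fish. It was at 10.1 and 22.1 TPM in withdrawal males and 69.3 and 115 TPM in withdrawal females, and at 325 and 260.0 TPM in control males and 31.5 and 118 TPM in control females. The turn of its sex difference was 4.80 on the log2 scale (SE 0.90, limma adjusted p = 0.00275). In the brain it was at 114, 101 and 140.4 TPM in withdrawal males and 475 and 534 TPM in withdrawal females, and at 473 and 463 TPM in control males and 68.0, 154 and 78.0 TPM in control females. ENSDART00000168307.1 had the largest positive value, 5.82 (SE 1.84), with 0 TPM in both withdrawal male livers, 0.90 and 9.15 TPM in withdrawal females, 49.4 and 42.6 TPM in control males, and 0 and 12.7 TPM in control females (limma adjusted p = 0.0288). It was not called without control male replicate 1 or 2, without withdrawal male replicate 1 or 2, without control female replicate 1 (3.79) or without withdrawal female replicate 2.

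Set against their own controls, male livers were lower under alcohol and after withdrawal in most of the set. Of the 24 transcripts that passed the filter without the control males, 19 were lower in alcohol-exposed than in control males, against 21.0% of all transcripts that so passed. In withdrawal against control males 19 of the 24 were lower, against 24.8%. None of the 24 was called higher in either comparison. All 7 transcripts that passed only through the control males were called lower too, a direction the filter had fixed. With them 26 of 31 were lower in alcohol-exposed males, where 25.5% of all tested transcripts were higher and 23.4% lower, or 49.0% either way. Likewise 26 of 31 were lower in withdrawal males, where 34.1% were higher and 27.3% lower, or 61.3% either way. The medians over the 31 were −2.35 under alcohol and −2.68 after withdrawal, against 0.03 and 0.09 over all tested. Medians without the 7 are not given. Both comparisons use the same 2 control male livers. The control sex difference and its change between control and withdrawal fish use them too, so these results do not support one another. The alcohol count over the 31 fell with either control male replicate left out, where most of the 7 no longer passed the filter. ENSDART00000126229.3, one of the 24, also lost its alcohol call without control male replicate 1.

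The most abundant transcript was at 197 and 172 TPM in alcohol-exposed male livers and 110.0 and 189 TPM in withdrawal male livers, against the 543 and 639 TPM of control males. Its log2 difference was −2.30 under alcohol (SE 0.20, limma adjusted p = 5.28e-05) and −2.47 after withdrawal (SE 0.20, limma adjusted p = 2.04e-05). The trio was at 761 and 67.6 TPM in alcohol-exposed males and at 1325 and 457 TPM in withdrawal males, and neither difference from control males was called. A second abundant transcript, ENSDART00000045284.6, was at 877 and 689 TPM in alcohol-exposed males, 571 and 705 TPM in withdrawal males and 3019 and 2621 TPM in control males. In female livers it was at 1670 and 1583 TPM under alcohol, 827 and 1007 TPM after withdrawal and 1049 and 1500.2 TPM in controls. The control males were thus above all other livers, and male and female livers overlapped nowhere under alcohol, with females the higher.

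ENSDART00000126229.3 differed from the other abundant transcripts named in control livers, where it was not called between the sexes. It was at 906 and 325 TPM in alcohol-exposed male livers, at 1524 and 2283 TPM in withdrawal males and at 1428 and 927 TPM in control males. Female livers held 1001 and 1112 TPM under alcohol, 675 and 686 TPM after withdrawal and 1746 and 947 TPM in controls. It was lower in alcohol-exposed than in control males (log2 difference −1.71, SE 0.48, limma adjusted p = 0.0187), a call lost without control male replicate 1, without alcohol-exposed male replicate 2 (−0.92), without rescaling and with quantile normalisation. Control males and females overlapped, and it was higher in withdrawal males than in withdrawal females (log2 difference 1.55, SE 0.48, limma adjusted p = 0.0329), against the direction of the brain rule. That call was lost with any 1 of the 4 withdrawal livers left out (log2 difference 1.39 to 1.72) and with quantile normalisation. In the brain it was at 388, 236 and 356 TPM in withdrawal males and at 1130 and 1386 TPM in withdrawal females. The trio leaned to males in withdrawal livers too, at 1325 and 457 TPM in males and 79.9 and 21.8 TPM in females. That difference was not called (log2 difference 4.27, SE 1.73, limma adjusted p = 0.0809).

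Fewer transcripts were called in female than in male livers against controls, and the difference between the sexes was tested only for withdrawal. The filter made part of this contrast. The 31 include the 7 that passed only through the control males, all called lower in males. These 7 were at most 2.48 TPM in any female liver and could hardly be called there. Without them 19 of 24 were lower in males in each comparison, and female counts over the 24 are not given. In alcohol-exposed against control females 3 of 31 were higher and 1 was lower, where 8.65% and 7.14% of all tested transcripts were called, or 15.8% either way. In withdrawal against control females 1 was higher and 5 were lower, where 17.5% and 16.3% were called, or 33.9% either way. ENSDART00000113799.2 was at 7.68 TPM in both alcohol-exposed female livers and at 6.79 and 5.47 TPM in withdrawal females, against 1.48 and 0.59 TPM in control females (limma adjusted p = 0.00131 under alcohol and 0.00128 after withdrawal). ENSDART00000169140.1 was at 0 and 0.50 TPM in alcohol-exposed females and at 0.26 and 0 TPM in withdrawal females, against 3.13 and 2.62 TPM in control females. It reached 1 TPM only in control livers, so it passed the filter only through them and its differences are given as a description. It was the 1 lower call under alcohol. The 5 lower after withdrawal included it and ENSDART00000121756.2, whose direction the filter had fixed too. The withdrawal count of 6 was 13 without control female replicate 1, and the alcohol count of 4 was 2 with the closely agreeing replicate pairs averaged. The 2 comparisons share their control libraries.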

How the data were processed

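RNA from pooled brain (14 libraries) and liver (12 libraries) was made into non-stranded libraries, as the labels' protocols state. The submitters' processing notes name FastQC 0.11.7, STAR 2.5.2, RSEM 1.3.1 and the danRer10 build. The authors deposited TPM per Ensembl transcript, and the annotation release is not given in the sources used here. The set was found on deposited TPM. For tests, each library was divided by its median ratio to the geometric mean, computed on 28316 transcripts in brain and 17404 in liver that no library listed at 0. Differences are on the log2(TPM + 1) scale, which understates changes of scarce transcripts. Testing asked for 1 TPM or more in 2 or more libraries of the tissue (36682 transcripts in brain, 21158 in liver). It used limma 3.58.1 in R 4.3.3, with a mean per group, a variance trend and Benjamini-Hochberg adjustment, and calls had an adjusted p below 0.05. Plots used Python 3.11.15 and matplotlib 3.10.9. The procedure was tested on simulated data. The members and comparisons were chosen with earlier results of these data known, and the liver comparisons with controls were added after liver levels were seen, as were the counts over transcripts that passed the filter without control males. Transcripts named in the text have the largest ratios, the highest levels, the largest called differences or values nearest to the limits of the rule. Lists of genes and markers could not be used without gene names. Alternatives changed the scaling, pseudocount, filter, groups fitted, replicate block and libraries kept.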

Additional observations from a re-analysis of the deposited data

Results flagged for a closer look

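The male minus female difference in liver differed between control and withdrawal fish for 24 of the 31 transcripts tested (limma, interaction of sex and exposure, control minus withdrawal), where 50.2% of all tested transcripts were called. Of the 24 transcripts that passed the filter without the control male livers, 17 were called positive, against 20.3% of all that so passed, and 1 negative. Where every withdrawal liver was listed at 0, the value only repeats the control sex difference. Among those called this holds for the group of 4 identical transcripts, ENSDART00000146870.1 and ENSDART00000149634.1, among others. By size, ENSDART00000168307.1 came first with 5.82 on the log2(rescaled TPM + 1) scale and ENSDART00000064739.4 next with 4.80. ENSDART00000149634.1 had 4.60, but it passed the filter only through the control males, which fixed its direction. The single negative value was −2.23, for ENSDART00000121756.2, which passed the filter only through control and alcohol-exposed females, so its direction was fixed too. For all of these but ENSDART00000064739.4 at least 1 group was at or near 0 TPM, so the size depended on the pseudocount.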

How the results depend on the processing

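The number of transcripts that met the rule was 149 on rescaled TPM, 146 at 1.5-fold, 13 at 3-fold and 68 from 1 TPM on. It was 39 to 148 with a library left out. Rescaling or leaving out a library could not lower this number. The 2 calls between the sexes in exposed brains became 5 without rescaling, 4 with quantile normalisation, 1 with a pseudocount of 0.1 and 0 to 7 with a library left out. With a library left out, liver calls between the sexes were 18 to 30 in controls, 2 to 6 under alcohol and 2 to 5 after withdrawal, and 15 to 24 for the difference between controls and withdrawal fish. Against controls they were 14 to 25 in alcohol-exposed and 18 to 25 in withdrawal males, and 3 to 5 and 4 to 13 in females, with 12 for withdrawal females at a pseudocount of 0.1. With the closest replicate pairs averaged, 2 were called between the sexes under alcohol, 1 after withdrawal and 2 in alcohol-exposed against control females. Where a group is left with 1 library, that library is assumed to vary like the other groups. With a control male liver left out, most transcripts that passed the filter only through the control males were no longer tested, and some that were still tested lost their call. The cause of these changes was not tested. Of 1184 single-transcript values under an alternative, 1045 kept direction and call, 138 lost the call, and 1 reversed. That was ENSDART00000142374.1 at −0.29 for the change of the liver sex difference, with a pseudocount of 0.1. Same-numbered replicates did not deviate together (correlations from −0.18 to 0.10). A replicate block in the fit gave 2 calls in exposed brains, 1 of them shared with the fit without it, and lost that of ENSDART00000154425.2 (−2.20). It gave 28, 4, 7 and 23 in the 4 liver comparisons of sex, with 25, 26, 4 and 6 against controls. With identical transcripts counted once, an alternative chosen after seeing the data, 33 met the rule and 23 were called between control livers. Depth is unknown, so no detection limit is given.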
